A study of Mus musculus with 6 samples.

Results

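The miR-183, miR-96 and miR-182 cluster was followed in small RNA libraries of LPS-stimulated cells that had been given vesicles of microglia. Its members were taken from the deposited miRNA table by name, as every row named miR-183, miR-96 or miR-182 with any arm, species prefix or isoform suffix. This gave 5 of 823 rows, with 5 different sequences, among 756 features when rows of the same name and sequence are summed. The members were 3 sequences of the 5p arm (miR-183-5p, miR-96-5p and miR-182, which is deposited as rno-miR-182 and is the 5p arm without an arm in its name) and 2 of the 3p arm (miR-183-3p and miR-182-3p). Of these, 4 carried rat names and 1 a mouse name.

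The 6 libraries were labelled Mes23.5, a dopaminergic line made by fusing mouse neuroblastoma cells with rat midbrain cells. In the SIX2_EV group, 3 libraries came from cells given extracellular vesicles of microglia overexpressing SIX2, a homeobox transcription factor, and in the control_EV group 3 came from cells given vesicles of control microglia. All 6 cultures were labelled as stimulated for 24 h with LPS, a bacterial cell wall component that activates inflammatory signalling. A line of the labels on culture speaks of BV2, which are mouse microglial cells, so the cell of origin is given only as labelled. No group without vesicles was analysed here, so miRNA brought by vesicles and miRNA made by the cells cannot be told apart, nor can fewer cells that make a miRNA and less of it per cell. Whether separate cultures lie behind the libraries is not stated, and p-values measure a spread between libraries that may be technical.

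The 3 miRNAs are made from 1 long primary transcript, which is cut into 3 hairpins and then into short mature strands. The cluster is best known from sense organs: hair cells of the inner ear, photoreceptors and sensory neurons depend on it, and changes in the seed of human miR-96 cause progressive hearing loss. Outside sense organs, miR-182 and miR-96 are known to repress Foxo1, a transcription factor of stress resistance, and miR-182 is induced in activated T lymphocytes. A miRNA finds its targets mainly through its seed, the bases 2 to 8 from its 5′ end.

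The 5 deposited sequences are shown first, because every count below is a count of exactly these strands. They are written 5′ to 3′ as deposited, in DNA letters, with the seed in capitals.
miR-183-5p: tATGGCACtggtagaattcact
miR-96-5p: tTTGGCACtagcacatttttgct
miR-182: tTTGGCAAtggtagaactcacaccg
miR-183-3p: tGAATTACcgaagggccataaa
miR-182-3p: tGGTTCTAgacttgccaact

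Between the 5p members the seeds differed at few bases, counted from 1 at the 5′ end. From miR-96-5p to miR-182 the change was C8A, with 6 of 7 seed bases equal, and from miR-96-5p to miR-183-5p it was T2A, also with 6 of 7 equal. From miR-182 to miR-183-5p there were both T2A and A8C, with 5 of 7 equal. Over the whole strand, miR-182 and miR-183-5p were the most alike pair, with 18 of 22 bases equal over the length they share, against 12 of 23 for miR-96-5p and miR-182 and 13 of 22 for miR-96-5p and miR-183-5p. Each 5p sequence was identical to the mouse mature entry of RefSeq, while the names in the table were those of rat. Rat and mouse reads of these strands could therefore not be told apart by sequence.

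The RefSeq hairpins (GRCm38.p6, minus strand of chromosome 6) show where the strands lie, with both annotated mature arms in capitals, the 5p arm first. Mir183 spans chr6:30169668-30169737, Mir96 chr6:30169446-30169551 and Mir182 chr6:30165918-30165992.
Mir183: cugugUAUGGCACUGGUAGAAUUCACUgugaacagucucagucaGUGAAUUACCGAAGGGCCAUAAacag
Mir96: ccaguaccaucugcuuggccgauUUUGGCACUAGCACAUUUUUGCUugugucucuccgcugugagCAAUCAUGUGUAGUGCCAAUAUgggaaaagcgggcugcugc
Mir182: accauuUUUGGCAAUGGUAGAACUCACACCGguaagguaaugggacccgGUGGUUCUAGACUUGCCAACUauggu

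In the direction of transcription Mir183 comes first, Mir96 follows after 116 bases, and Mir182 lies 3453 bases further on. In GENCODE M21 no other gene overlapped any of the 3 hairpins, and the nearest protein-coding genes on either side were Ube2h and Nrf1. The deposited table placed the rows on the same strand of chromosome 6 at 30169648 to 30169754 (miR-183), 30169445 to 30169550 (miR-96) and 30165896 to 30166014 (miR-182), in a build that it does not name. The deposited position of the miR-96 hairpin lay 1 base from that of RefSeq although both are 106 bases long, so the builds were not mixed. Of the 6 annotated arms, 5 were among the deposited rows. The remaining one was the 3p arm of miR-96.

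The libraries differed in ways that touch every level below. They held 179621 to 232635 deposited reads in SIX2_EV, against 253037 to 421279 in control_EV. Names of mature miRNAs with a hairpin in the mouse took 6.78% to 32.6% of the reads in SIX2_EV, against 31.5% to 70.8% in control_EV. In each group the third library stood apart, with 7.94% (SIX2_EV) and 7.48% (control_EV) of reads in sequences named mir-1285, against at most 0.447% in any other library. TMM scaling, which corrects for such differences in composition, gave factors from 0.308 in the second SIX2_EV library to 2.73 in the third control_EV library. Of 13 neuronal marker miRNAs, 7 were listed and 5 tested (miR-7a-5p, miR-128-3p, miR-129-5p, miR-129-2-3p and miR-132-3p), and 0 passed. The most abundant of them was miR-7a-5p, at 2176 ± 372 CPM (counts scaled to the TMM effective library) in SIX2_EV, against 2271 ± 663 CPM in control_EV (SD, n = 3), above every cluster member. Its log2 fold change of SIX2_EV over control_EV was -0.06. All 5 tested neuronal markers were lower in SIX2_EV, as were 64.6% of all tested features. Their median log2 fold change was -0.79, beside -0.30 for all tested features. That median is the value of miR-129-2-3p (SE 1.54), which had 0, 0 and 26 reads in SIX2_EV. The direction was not particular to neuronal markers: all 6 tested myeloid miRNAs were lower too (median -0.54). Of the 3 tested red blood cell and serum miRNAs, 2 were lower and 1 higher (median -0.35). miR-124-3p and miR-137-3p were not among the listed names, and miR-9-5p had 7 reads in 1 control_EV library. Summed levels of lists count only the most abundant matching row of each miRNA, so its other rows are left out. For the neuronal list the sum was 2178 to 3310 CPM in SIX2_EV, against 2817 to 3749 CPM in control_EV. For the myeloid list, with 7 of 7 listed, it was 30875 to 32607 CPM in SIX2_EV, against 24840 to 47518 CPM in control_EV. A cattle-named miR-342 that is described below is not in the myeloid sum. Red blood cell and serum miRNAs, with 4 of 4 listed, summed to 13921 to 21295 CPM in SIX2_EV, against 8722 to 30695 CPM in control_EV.

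The first comparison asked whether cells given vesicles of SIX2-overexpressing microglia held more or less of each cluster miRNA. None of the 3 5p members passed the test. The intervals below hold for TMM scaling, and larger differences remain possible under another scaling. With total counts the log2 fold change intervals were -3.23 to 0.78 for miR-182 and -2.88 to 0.73 for miR-183-5p. miR-183-5p, the first miRNA of the cluster and a regulator of sensory neurons, had 138, 95 and 342 reads in the SIX2_EV libraries, against 399, 711 and 835 reads in the control_EV libraries. On the CPM scale these were 1313, 1330 and 1555 in SIX2_EV, against 1459, 1779 and 747 in control_EV. The 3 SIX2_EV libraries lay close together, within the range of the control_EV libraries, among which the third was lowest and the second highest.

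miR-182, the last miRNA of the cluster, had 85, 56 and 309 reads in SIX2_EV, against 258, 448 and 1165 reads in control_EV. Its CPM were 808, 784 and 1405 in SIX2_EV, against 943, 1121 and 1042 in control_EV. Here the SIX2_EV libraries were the ones that spread: the first and second lay below all 3 control_EV libraries and the third above all of them. In the authors' deposited normalized signal miR-182 had 195.9, 190.3 and 330.2 units in SIX2_EV, against 218.6, 253.7 and 264.1 units in control_EV, the same order as in CPM except between control_EV libraries 2 and 3.

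miR-96-5p, the member in which seed changes cause deafness, was the least abundant of the 3, with 19, 0 and 46 reads in SIX2_EV, against 48, 78 and 151 reads in control_EV. These were 181, 0 and 209 CPM in SIX2_EV, against 175, 195 and 135 CPM in control_EV. Apart from the second SIX2_EV library, where it was listed at 0, the levels in both groups covered much the same range. The table hardly lists values under 5 reads, and 5 reads were worth 70.0 CPM in that library, so a value of 0 there means only that few or no reads were listed.

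**Figure D1:**
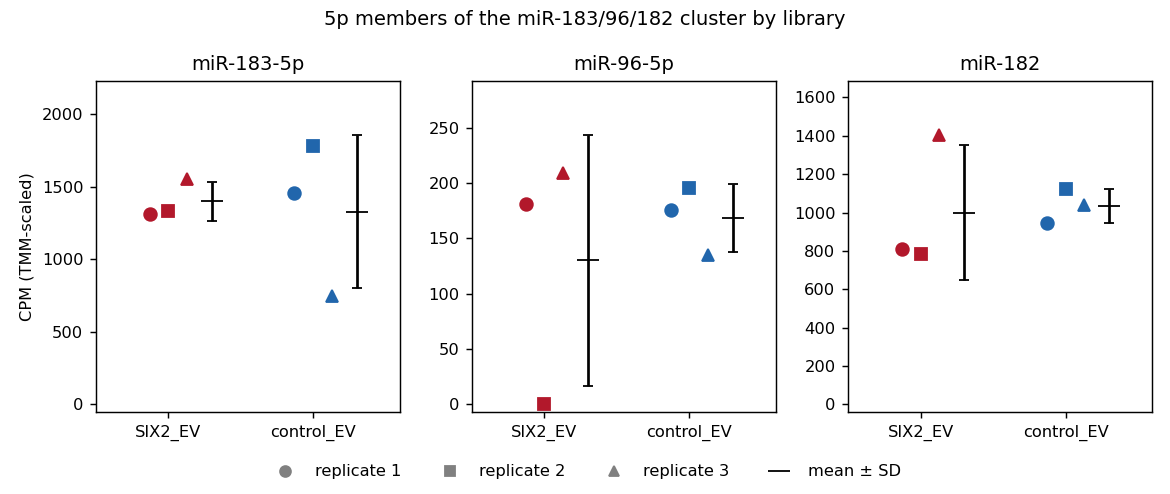
TMM-scaled CPM of miR-183-5p, miR-96-5p and miR-182 (vertical axes) in each library of SIX2_EV and control_EV, with 1 symbol per replicate number and bars for the mean ± SD of 3 libraries. The groups overlap in all 3 panels. miR-96-5p is at 0 in the second SIX2_EV library, and miR-183-5p is lowest, at 747 CPM, in the third control_EV library.

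miR-183-5p averaged 1399 ± 135 CPM in SIX2_EV, against 1328 ± 529 CPM in control_EV (SD, n = 3), and its log2 fold change was 0.08 (SE 0.36, 95% interval -0.79 to 0.94; adjusted p 0.943 by edgeR's quasi-likelihood test with Benjamini-Hochberg adjustment over 319 features). miR-182 averaged 999 ± 352 CPM in SIX2_EV, against 1035 ± 89.1 CPM in control_EV (SD, n = 3). Its log2 fold change was -0.05 (SE 0.31, interval -0.80 to 0.71; adjusted p 0.966 by edgeR). As a ratio of SIX2_EV over control_EV, the interval of miR-182 ran from 0.574 to 1.63, and that of miR-183-5p from 0.578 to 1.92.

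For miR-96-5p the means were 130 ± 113 CPM in SIX2_EV, against 169 ± 30.7 CPM in control_EV (SD, n = 3). The log2 fold change of -0.35 had an SE of 1.23 and an interval of -3.33 to 2.63 (adjusted p 0.943 by edgeR), so these libraries could not show even a large difference in miR-96-5p. That width rests on the library at 0: without the second SIX2_EV library the log2 fold change was 0.29 (SE 0.50, adjusted p 0.941 by edgeR).

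Among all 319 tested features, 0 passed an adjusted p of 0.05 (percent called: 0), 39 (12.2%) had an unadjusted p under 0.05, and DESeq2 called 20 (6.27%). None of the 3 cluster members was among any of these. The groups did not overlap in CPM for 22.9% of tested features, with SIX2_EV lower for 16.9% and higher for 5.96%, and they overlapped for each of the 3 members, with exact two-sided permutation p-values of 0.9 (miR-183-5p), 0.9 (miR-96-5p) and 1.0 (miR-182). All tested features had a median log2 fold change of -0.30, with 64.6% of them lower in SIX2_EV. This background rests on single libraries: the count at an unadjusted p under 0.05 was 9 without control_EV replicate 2 and 95 without SIX2_EV replicate 3, and the median was -0.47 without SIX2_EV replicate 3, -0.14 without SIX2_EV replicate 2 and -0.04 without control_EV replicate 3.

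The sizes moved with the scaling. With total counts in place of TMM, all 3 members had lower values in SIX2_EV, with log2 fold changes of -1.08 for miR-183-5p (SE 0.83), -1.28 for miR-96-5p (SE 1.56) and -1.23 for miR-182 (SE 0.93), and adjusted p-values of 0.398, 0.561 and 0.387 by edgeR. The median of all tested features was then -1.54, below all 3. With the factors implied by the authors' normalized columns, the values were 0.11 for miR-183-5p, -0.33 for miR-96-5p and -0.04 for miR-182, beside a median of -0.28. Under each of the 5 scalings miR-183-5p and miR-182 stood above the median of all tested features, and the interval of each member included 0.

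**Figure D2:**
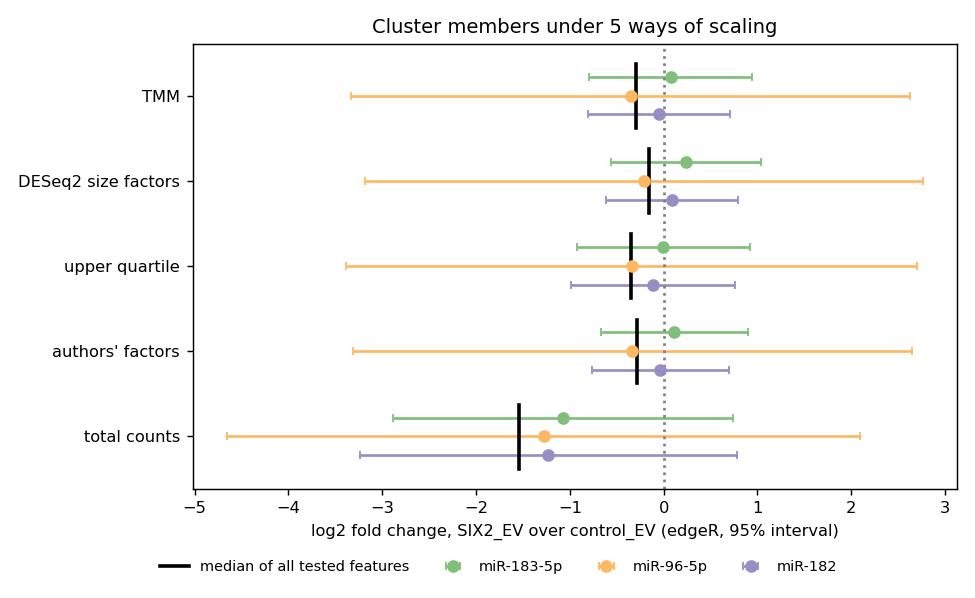
log2 fold change of SIX2_EV over control_EV (horizontal axis) for the 3 5p members under 5 ways of scaling, with points for edgeR estimates, bars for 95% intervals and a black line for the median of all tested features. All intervals include 0. With total counts the points lie between -1.28 and -1.08, and the median lies at -1.54.

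The second comparison took the cluster as 1 quantity, its share of the reads, which needs no model. Of all deposited reads, the 5 members together took 0.135% (Wilson 95% interval 0.119 to 0.153), 0.0649% (0.0554 to 0.0761) and 0.378% (0.351 to 0.407) in the SIX2_EV libraries. In the control_EV libraries they took 0.274% (0.254 to 0.295), 0.489% (0.462 to 0.517) and 0.518% (0.496 to 0.540). The third SIX2_EV library lay above the first control_EV library, so the groups overlapped.

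The means were 0.193% ± 0.165 in SIX2_EV, against 0.427% ± 0.133 in control_EV (SD, n = 3; two-sided exact permutation p 0.2). Wilson intervals cover the counting error of reads within 1 library and not the spread between libraries. Copies of 1 molecule cannot be recognised without molecular identifiers, so the counting error may be larger than they show.

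The direction turned round when the share was taken of mature miRNA reads alone. Of the reads with mature names and a mouse hairpin, the cluster took 0.970% (0.856 to 1.10), 0.957% (0.816 to 1.12) and 1.16% (1.08 to 1.25) in SIX2_EV. In control_EV it took 0.869% (0.807 to 0.935), 0.862% (0.815 to 0.911) and 0.731% (0.701 to 0.762). Every SIX2_EV library was above every control_EV library, though the counting intervals of the first and second SIX2_EV libraries overlapped those of the first and second control_EV libraries. How many of all features separate in this way on this scale was not counted, so the separation cannot be called unusual. On the CPM scale, SIX2_EV was higher without overlap for 5.96% of tested features. That percent is no background for the separation seen here, because the denominators differ. Against the TMM effective library, on which CPM rest, the groups overlapped for the cluster.

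The means on this scale were 1.03% ± 0.113 in SIX2_EV, against 0.821% ± 0.0778 in control_EV (SD, n = 3). The exact permutation p was 0.1, the smallest that 3 against 3 libraries allow, and 0.55 after Benjamini-Hochberg adjustment over 11 permutation tests of the cluster. In the first and second libraries alone the means were 0.964% in SIX2_EV, against 0.865% in control_EV. Against the TMM effective library, which scales each library by the features it shares with the others, the cluster took 0.253% ± 0.0563 in SIX2_EV, against 0.254% ± 0.0574 in control_EV (SD, n = 3; exact permutation p 1.0). The share of mature names in the libraries, which was lower in SIX2_EV except where the highest SIX2_EV library overlapped the lowest control_EV one, moved with these results, and its part in them was not tested.

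**Figure D3:**
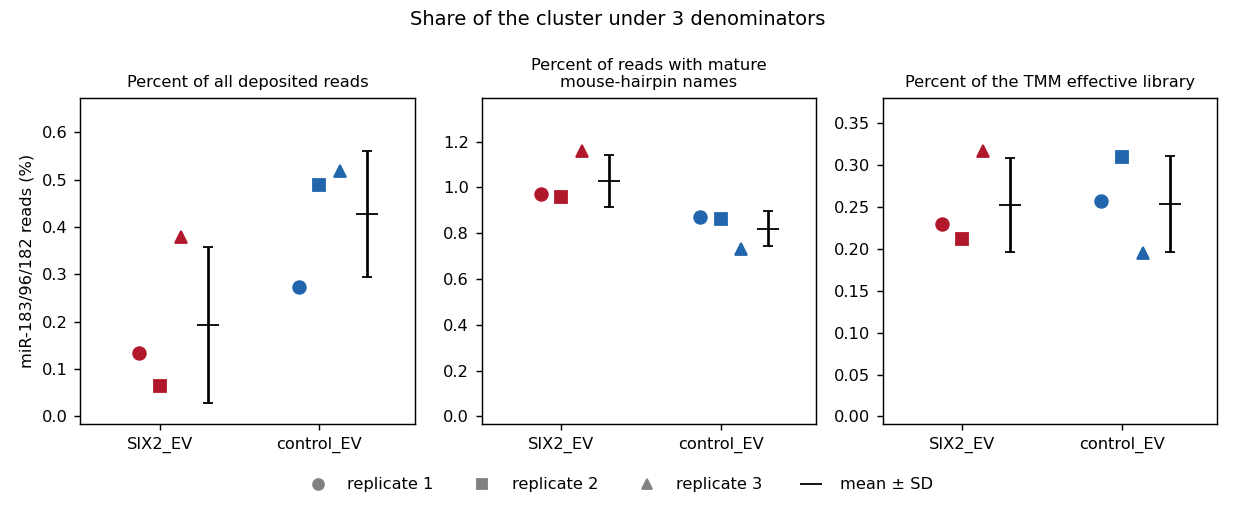
Percent of reads taken by the 5 cluster members (vertical axes) in each library, out of all deposited reads, out of reads with mature mouse-hairpin names, and out of the TMM effective library, with bars for the mean ± SD of 3 libraries. SIX2_EV has the lower mean of all deposited reads, 0.193% against 0.427%, the higher mean of mature reads, 1.03% against 0.821%, and about the same mean in the third panel.

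The third comparison looked inside the cluster, where scaling between libraries cancels out. Because each strand is counted once per read, no correction for length was made. Whether different strands were captured equally well was not tested, so orders and percents between strands are those of reads. miR-183-5p was the most abundant member in 5 of 6 libraries, miR-182 came next, and miR-96-5p was far below both. The exception was the third control_EV library, where miR-182 led.

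Of the reads of the 3 5p members, miR-182 made up 35.1% (Wilson interval 29.4 to 41.3), 37.1% (29.8 to 45.0) and 44.3% (40.7 to 48.0) in the SIX2_EV libraries. Its part in the control_EV libraries was 36.6% (33.1 to 40.2), 36.2% (33.6 to 38.9) and 54.2% (52.0 to 56.3). The first and second libraries of both groups agreed within counting error, between 35.1% and 37.1%, while the third library was higher in each group. The groups themselves averaged 38.8% ± 4.85 in SIX2_EV, against 42.3% ± 10.3 in control_EV (SD, n = 3; exact permutation p 0.7), and in the first and second libraries alone 36.1% in SIX2_EV, against 36.4% in control_EV.

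miR-183-5p showed the reverse, with 57.0%, 62.9% and 49.1% in SIX2_EV, against 56.6%, 57.5% and 38.8% in control_EV (exact permutation p 0.6 between groups). The reads of miR-183-5p per read of miR-182 were 1.62, 1.70 and 1.11 in SIX2_EV, against 1.55, 1.59 and 0.717 in control_EV, so the third library was the lowest in both groups. miR-96-5p made up 7.85% and 6.60% in SIX2_EV libraries 1 and 3 and 6.81%, 6.31% and 7.02% in the control_EV libraries. SIX2_EV library 2 departed from this range, with miR-96-5p listed at 0 beside 151 reads of the other 5p members. Its share was lowest there, and no limit is drawn from the 0. The third library of each group is also the one with over 7% of reads in mir-1285 sequences, and the part of that in the shifted make-up was not tested.

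**Figure D4:**
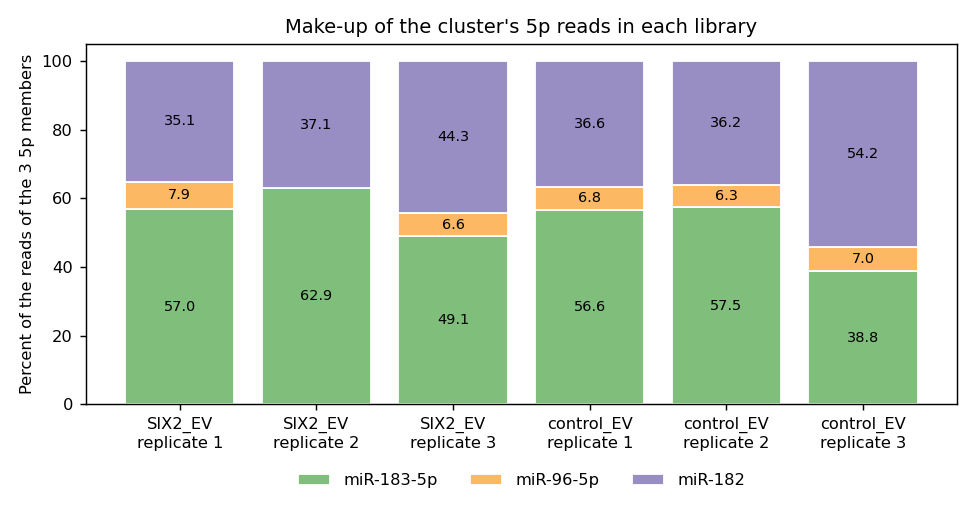
Stacked bars of the percent that miR-183-5p, miR-96-5p and miR-182 take of their summed reads (vertical axis, bars start at 0) in each library. The first and second libraries of both groups have 35.1% to 37.1% miR-182, and the third ones have 44.3% (SIX2_EV) and 54.2% (control_EV).

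The 3p arms, which are the less used strands of these hairpins, were listed only in the third control_EV library, the deepest one. miR-183-3p had 25 reads there and miR-182-3p 5 reads, both were at 0 in the other 5 libraries, and neither passed the filter on low counts. In that library the 3p arm made up 2.91% of the reads of both miR-183 arms (Wilson interval 1.98 to 4.26) and 0.427% of those of both miR-182 arms (0.183 to 0.996). Both listed 3p sequences began 1 base after the mouse RefSeq entries, which are given here for comparison with their own seeds in capitals.
mmu-miR-183-3p: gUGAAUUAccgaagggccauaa
mmu-miR-182-3p: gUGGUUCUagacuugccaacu

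Against these, the seeds of the listed 3p strands were shifted by 1 base along the hairpin. For miR-182-3p the deposited suffix L-1 records this shift. For miR-183-3p the rat entry that names the row begins at the same base as the deposited sequence, which is 1 base longer at its 3′ end.

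In abundance, miR-183-5p stood above 79.0% of tested features, miR-182 above 75.2% and miR-96-5p above 38.6%. By mean CPM over the 6 libraries, miR-183-5p ranked 67 of 319 tested features at 1364 CPM, miR-182 ranked 79 at 1017 CPM and miR-96-5p ranked 196 at 149 CPM. The rank of miR-182 varied between 61 and 99 over the SIX2_EV libraries and between 71 and 79 over the control_EV libraries. Directly above miR-182 stood miR-199-3p under 2 foreign names, at 1008 ± 69.7 CPM in SIX2_EV, against 1044 ± 125 CPM in control_EV under each, and directly below it miR-486-5p under 2 names, at 1010 ± 322 CPM in SIX2_EV, against 1007 ± 363 CPM in control_EV under each (SD, n = 3). These features were chosen for their closeness to miR-182 in mean CPM, so the likeness of their means is not a result.

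The features whose log2(CPM + 1) followed miR-182 most closely over the 6 libraries were found by Pearson's r, as a description. They were miR-222-3p (r = 0.96), the predicted PC-5p-56812_55 (0.95), a cattle-named miR-342 (0.94), miR-30c-5p (0.93) and miR-21-5p (0.93). miR-222-3p, for example, had 856 ± 381 CPM in SIX2_EV, against 816 ± 37.2 CPM in control_EV (SD, n = 3), with its highest value in the third SIX2_EV library as for miR-182. The partners within the cluster were not among the closest: miR-96-5p came 111th (r = 0.56) and miR-183-5p 185th (r = 0.18) of 318 features. The values share their libraries and scaling factors, and 6 points in all set these coefficients.

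Only 1 other deposited feature shared a seed with a 5p member. It was a cattle-named miR-1271, 21 bases long and deposited at 2 loci, which has the seed of miR-96-5p. It had 0, 0 and 16 reads in SIX2_EV, against 9, 21 and 63 reads in control_EV, or 24.2 ± 42.0 CPM in SIX2_EV, against 47.3 ± 12.6 CPM in control_EV (SD, n = 3), and did not pass the test (log2 fold change -0.79, SE 1.43, adjusted p 0.857 by edgeR). In the control_EV libraries, where both were listed throughout, miR-96-5p outnumbered it in each.

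The cluster was also set beside miRNAs that share a known role with it. Of 12 miRNAs that target Foxo1 or Foxo3, the 3 cluster members included, all 12 were listed and 11 tested, of which 3 had positive and 8 negative values, 0 passed, and the median log2 fold change was -0.28, beside -0.30 for all tested features. Without the cluster, 6 of 8 were negative with the same rounded median of -0.28. The smallest unadjusted p in this list was that of miR-132-3p, a miRNA of active neurons and inflammation, with 139 ± 15.5 CPM in SIX2_EV, against 346 ± 93.3 CPM in control_EV (SD, n = 3), a log2 fold change of -1.31 (SE 0.50, adjusted p 0.368 by edgeR). The most abundant was miR-27b-3p, at 3624 ± 537 CPM in SIX2_EV, against 4068 ± 539 CPM in control_EV (SD, n = 3).

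Other sensory and retinal miRNAs were scarce in these libraries. Of 9 on that list 6 were listed, and the 3 tested were the cluster members themselves. miR-204-5p, a miRNA of the retinal pigment epithelium, had 0, 0 and 12 reads in SIX2_EV, against 0, 7 and 18 in control_EV. miR-184, known from the cornea and lens, had 0, 6 and 0 reads in SIX2_EV, against 0, 160 and 8 in control_EV, so a single library held most of its reads.

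Epithelial miRNAs, most of them of the miR-200 family, which like this cluster is repressed by ZEB1, were also scarce. Of 7 on the list 4 were listed and 1 tested, miR-200a-3p, with 0, 0 and 23 reads in SIX2_EV, against 8, 19 and 71 reads in control_EV (log2 fold change -0.30, SE 1.52, adjusted p 0.943 by edgeR). Their summed level, with 1 row per miRNA, was 0 to 127 CPM in SIX2_EV, against 47.5 to 154 CPM in control_EV. It was far below that of miR-183-5p in every library.

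Of 7 miRNAs of hypoxia and oxidative stress, miR-182 included, 6 were listed and 5 tested, 1 with a positive and 4 with negative values, and 0 passed. The median was -0.48, and -0.64 without miR-182. The smallest p was that of miR-210-3p, which hypoxia induces through HIF1A, at 646 ± 110 CPM in SIX2_EV, against 1120 ± 157 CPM in control_EV (log2 fold change -0.79, SE 0.26, adjusted p 0.368 by edgeR), and the most abundant was miR-144-3p, a red blood cell miRNA, at 1429 ± 118 CPM in SIX2_EV, against 1999 ± 163 CPM in control_EV (SD, n = 3 for both).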

How the data were processed

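Per the labels' protocols, total RNA went into TruSeq small RNA libraries, and the program ACGT101-miR took out adapter dimers, reads of low complexity, repeats and reads of abundant RNA families such as ribosomal RNA. No source used here names the mapper, its settings, the genome build or the miRBase release. The deposited table holds estimated counts per sequence and locus (raw, per the file headers), which need not be whole. Its normalized signal, per the file headers, equals those counts times 1 factor per library, from 0.2267 to 3.3986, whose choice by the authors is not described.

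Rows of the same name and sequence were summed and rounded. All 19 values above 0 of the cluster were whole within 0.001. Listed values, 2410 over all sequences, were under 5 in 31 cases and equal to 5 in 169, so a value of 0 is read as listed at 0 and no limit is drawn from it. All features were tested with edgeR 4.0.16 (quasi-likelihood test, TMM, filterByExpr, Benjamini-Hochberg at 0.05, no block) in R 4.3.3. CPM are counts scaled to the TMM effective library, an SE is the log2 fold change over the root of F, and intervals are at 95%. Shares were compared by exact two-sided permutation over libraries (scipy 1.17.1). Alternatives were DESeq2 1.42.0, limma-voom 3.58.1 and other scalings, filters and library sets. The fit was also run on simulated counts, but the outcome is not given here and no result rests on it. RefSeq sequences were matched by symbol, for 3 of 3 hairpins.

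Members, lists and tests were chosen with earlier results of these data known. Named features were all cluster rows, the 5 most similar profiles, the 2 neighbours on each side in abundance, features with a shared seed, and from each list the most abundant member and that of smallest p; miR-204-5p, miR-184, miR-124-3p, miR-137-3p, miR-9-5p, miR-128-3p, miR-129-5p and miR-129-2-3p were named in addition, after their values were seen.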

Additional observations from a re-analysis of the deposited data

How the results depend on the processing

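No member passed the threshold under any alternative run, so only directions and sizes moved. The count of features past the threshold was 0 under every alternative except DESeq2, which called 20, and it stayed at 0 in each leave-one-out fit. The log2 fold change of miR-182, -0.05 with TMM, was 0.0915 with DESeq2 size factors, 0.105 with the DESeq2 test, 0.0272 with limma-voom and 0.0288 with zeros set to 4. Leaving out 1 library at a time gave -0.23 to 0.15, with positive values without SIX2_EV replicate 1 or 2 or control_EV replicate 3. miR-183-5p, at 0.08, was -1.08 with total counts, -0.0033 with upper quartile scaling, -0.0058 with a filter of 10 CPM, -0.11 in replicates 1 and 2 only, and -0.06 to 0.30 with 1 library left out, negative without control_EV replicate 3. miR-96-5p, at -0.35, was -1.43 with limma-voom, -1.28 with total counts, -0.87 with the replicate block, -0.75 in replicates 1 and 2 only, -0.07 with zeros set to 4, and -0.69 to 0.29 with 1 library left out, positive without SIX2_EV replicate 2. The share of the cluster, -0.234 percentage points for SIX2_EV minus control_EV, was 0.208 of mature names and -0.327 to -0.170 with 1 library left out. The percent of miR-182 among the 5p reads, -3.48 points, was -6.53 to 2.44 with 1 library left out and 2.44 without control_EV replicate 3, alternatives added after the data were seen. The cause of these turns was not tested. With the replicate number as a block, miR-182 was at -0.10 (adjusted p 0.905 by edgeR) and 0 features passed. The numbers were not taken as pairing the libraries, since the deviations of same-numbered libraries correlated at 0.21, 0.07 and 0.67. Few reads lie behind miR-96-5p, miR-183-3p and miR-182-3p, with 342, 25 and 5 in all.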

Other observations

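The third control_EV library listed 174 features that no other library listed, against 1 to 18 in each of the others, and both 3p arms of the cluster were among them. At the ratio of 3p to 5p reads seen there, the 711 reads of miR-183-5p in the second control_EV library would go with 21.3 reads of miR-183-3p, and the 399 and 342 reads in control_EV library 1 and SIX2_EV library 3 with 11.9 and 10.2, where the table lists 0. For miR-182-3p the same ratio gives at most 1.92 reads in any other library, under the 5 reads from which the table mostly lists a value.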
